A study of Mus musculus with 2 samples.

Results

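A set of 10 genes of membrane-anchored serine proteases, their inhibitors and an activating convertase were followed in the livers of a control and a Tmprss6-deficient mouse. The genes were Tmprss6, Tmprss2, Tmprss4, Hpn, St14, Prss8, Corin, Spint1, Spint2 and Furin, chosen as a family by name, and the platform annotation assigned 14 probe sets to 1 of these symbols alone, out of 45101 on the array. All 10 genes had at least 1 probe set, among 18193 named genes. Each group was 1 male mouse of 129Sv/C57BL6 strain, 3 months old and fasted overnight: the control, whose genotype the labels do not spell out, and an animal labelled Tmprss6-/-, made by gene targeting. Total liver RNA of each animal was hybridised to 1 Affymetrix GeneChip covering the mouse genome. There were no replicates, so no test was made, every difference is one between these 2 animals, and the number of arrays limits the precision.

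Serine proteases cut proteins with a reactive serine, and those described here stay anchored in the cell membrane. Most are type II transmembrane proteases, whose tail lies in the cytoplasm and whose catalytic domain faces outward, while prostasin, the product of Prss8, is held by a lipid (GPI) anchor. They are made as inactive precursors and are activated by a cut at the start of the catalytic domain, by themselves or by another protease. Matriptase-2, the product of Tmprss6, is made in hepatocytes and holds down the iron hormone hepcidin, with hemojuvelin as a known substrate. Hepsin, the product of Hpn, is the other abundant type II protease of the hepatocyte. Matriptase (St14), prostasin and the Kunitz-type inhibitors HAI-1 (Spint1) and HAI-2 (Spint2) are best known from epithelia such as bile ducts and gut.

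The RefSeq promoter table (GRCm38.p6; 250 bases before to 50 after a gene's start) held 8 windows for 6 of the 10 genes, Tmprss2, Hpn, Corin, Spint1, Spint2 and Furin. The windows of 3 genes are shown because their signals differed in the 3 ways seen among the genes, Tmprss2 being higher in the deficient liver, Spint1 lower and Spint2 level. They lie at chr16:97611146-97611445 on the minus strand, chr2:119237110-119237409 on the plus strand and chr7:29281928-29282227 on the minus strand. Capitals mark motif matches on either strand, which are GC boxes and, in Spint1, also an ETS core.
Tmprss2: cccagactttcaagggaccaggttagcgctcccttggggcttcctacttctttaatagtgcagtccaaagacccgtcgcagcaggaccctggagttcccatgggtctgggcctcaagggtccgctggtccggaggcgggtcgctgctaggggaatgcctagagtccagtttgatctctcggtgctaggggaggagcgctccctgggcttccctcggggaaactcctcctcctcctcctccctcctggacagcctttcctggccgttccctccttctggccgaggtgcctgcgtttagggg
Spint1: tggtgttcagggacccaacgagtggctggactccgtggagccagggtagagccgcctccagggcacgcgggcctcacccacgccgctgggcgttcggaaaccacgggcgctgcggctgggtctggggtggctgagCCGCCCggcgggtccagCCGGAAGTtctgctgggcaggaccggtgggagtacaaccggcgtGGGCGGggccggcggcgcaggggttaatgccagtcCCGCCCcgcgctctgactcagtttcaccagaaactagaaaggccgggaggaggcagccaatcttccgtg
Spint2: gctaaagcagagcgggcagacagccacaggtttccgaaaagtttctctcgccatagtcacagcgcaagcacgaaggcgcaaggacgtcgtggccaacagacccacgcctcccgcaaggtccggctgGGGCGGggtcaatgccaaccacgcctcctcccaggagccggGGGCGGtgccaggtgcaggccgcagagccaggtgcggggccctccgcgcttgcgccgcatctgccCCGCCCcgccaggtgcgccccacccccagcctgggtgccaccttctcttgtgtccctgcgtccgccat
The Spint1 and Spint2 windows each held 3 GC boxes (GGGCGG), and Spint1 also held 1 ETS core (CCGGAAGT). Of 32851 windows of the same length in the table, 35.7% held a GC box and 3.89% the ETS core. The Tmprss2 window held none of the 6 motifs searched on both strands, the others being the TATA box (TATAAA, in 13.6% of windows), the SMAD element of BMP-responsive genes (GGCGCC, 11.9%), the palindromic STAT element (TTCNNNGAA, 8.3%) and the androgen receptor half-site (AGAACA, 19.0%). The GC content was 62.3% for Tmprss2, 69.7% for Spint1 and 69.3% for Spint2, against a median of 52.7% over all windows. A match is a description of letters and not a binding site.

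Values are MAS5 signals, linear brightness units computed for each array alone. Signals below 17.8, the median of all probe sets on both arrays, were treated as too dim to give a level, and ratios were taken as deficient over control. A gene above this floor on 1 array only has a bound, taken against the floor. The floor was reached by 22272 probe sets in the control liver and 22773 in the deficient liver, leaving out 64 control sets. Pairs of probe sets for one gene give the only measure of error here, the SD of their log2 ratios, and how animals vary is not part of it. This SD, called the spread below, was 0.50 where both sets had a mean signal under 64, 0.34 for signals of 64 to 256, 0.21 for 256 to 1024 and 0.16 for brighter sets. The tissue was read as liver by hepatocyte markers, with all 8 named genes of that list above the floor on both arrays, within 1.5-fold, at a median log2 ratio of -0.055.

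Of the 14 probe sets, 9 were above the floor on both arrays, 1 on the control array only and 4 on neither. By the brightest set of each gene, 7 of the 10 genes were measured on at least 1 array. Among those 7, Tmprss2 was higher and Tmprss6 and Spint1 were lower by 1.5-fold or more, while Hpn, Prss8, Spint2 and Furin were within 1.5-fold. Of all 12243 genes measured this way, 8.83% were higher and 9.2% lower by that size. At 2-fold or more, Tmprss2 was higher and Tmprss6 lower, against 2.38% and 2.78% of all genes. The median log2 ratio of the 7 genes was 0.025, and that of all measured genes was -0.0050. The differences lay in single genes, in both directions, and the median of the family was near that of the array.

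**Figure D1:**
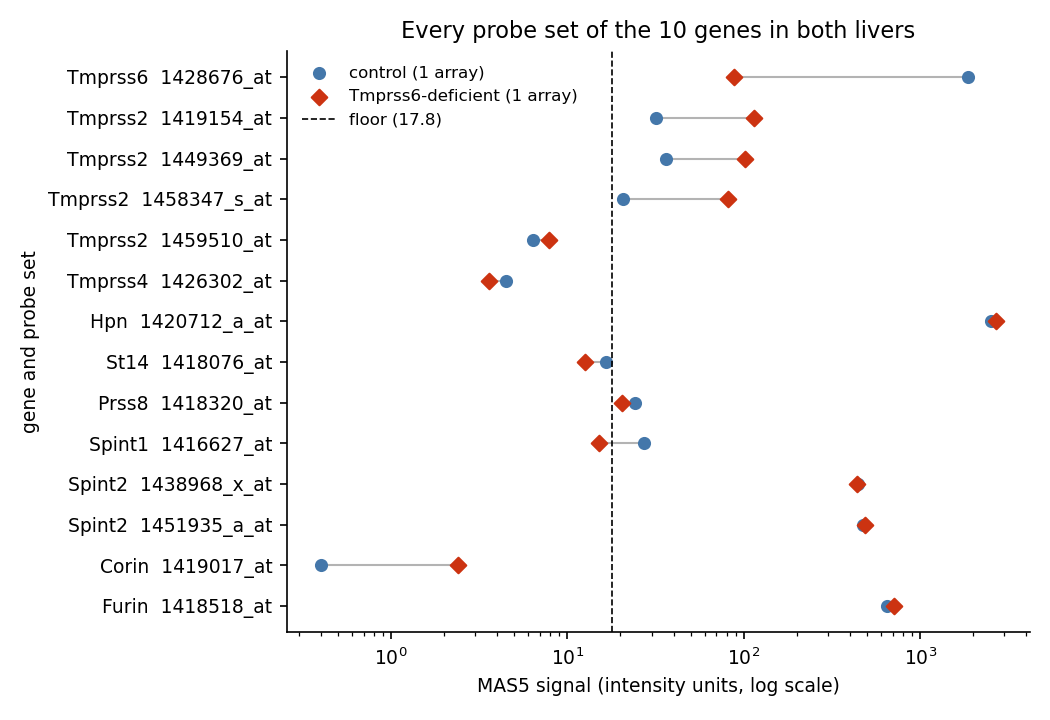
MAS5 signal (log axis, intensity units) of all 14 probe sets of the 10 genes, with circles for the control liver, diamonds for the Tmprss6-deficient liver and a dashed line at the floor of 17.8. Tmprss6 lies far to the left in the deficient liver, 3 sets of Tmprss2 lie to the right, and Hpn, Spint2 and Furin nearly coincide.

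Tmprss6, the targeted gene, was read by a single probe set, 1428676_at. Its signal was 1868 in the control liver and 88.1 in the deficient liver, a log2 ratio of -4.41. Tmprss6 ranked 5 from the lowest ratio among 19894 probe sets that reached the floor in both livers. The control was high and the deficient liver low, in the direction that the labels give. The signal of 88.1 was still above the floor, and the sources used here do not say if its probes fall within the targeted segment, so this set is a limited check of the label. With a mean signal between 256 and 1024 the ratio was 21.0 times the spread of that range, although the signal of the deficient liver alone lies in a dimmer range with a wider spread.

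Tmprss2, which encodes an epithelial type II protease best known for its response to androgens in the prostate and for cutting viral envelope proteins, was the 1 gene of the family that was higher by 1.5-fold or more. Probe set 1419154_at read 32.0 in the control and 115 in the deficient liver. Probe set 1449369_at read 36.2 and 101.8, and 1458347_s_at read 20.6 and 81.4. All 3 were dim in the control and higher in the deficient liver, by 3.59-fold, 2.81-fold and 3.95-fold. The fourth, 1459510_at, read 6.4 and 7.9, below the floor on both arrays, and gives no ratio.

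The mean log2 ratio of Tmprss2 was 1.77 ± 0.25 (SD, n = 3 probe sets, which are not replicates of the condition and of which 1419154_at and 1449369_at are annotated to the same transcript record). The single ratios were 3.70, 2.99 and 3.98 times the spread between probe sets of a gene at that signal. Of 7595 probe sets with a mean signal from 17.8 to 64, 3.71% were higher by 2-fold or more, so a single dim set past that size was not rare. Of 1717 genes with 3 or more sets that reached the floor in both livers, 5 (0.291%) had every such set higher by 2-fold or more, and Tmprss2 was 1 of these. These genes were not matched to Tmprss2 in signal or number of sets. Bright sets passed that size less often (1.09% at a mean signal of 1024 or more), so the share is no measure of how rare Tmprss2 is among dim genes. With the floor raised to the 70th percentile of signals (52.9) every control signal of Tmprss2 falls below it, and its 3 sets are then at least 2.17-fold, 1.92-fold and 1.54-fold higher, in the order above.

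**Figure D2:**
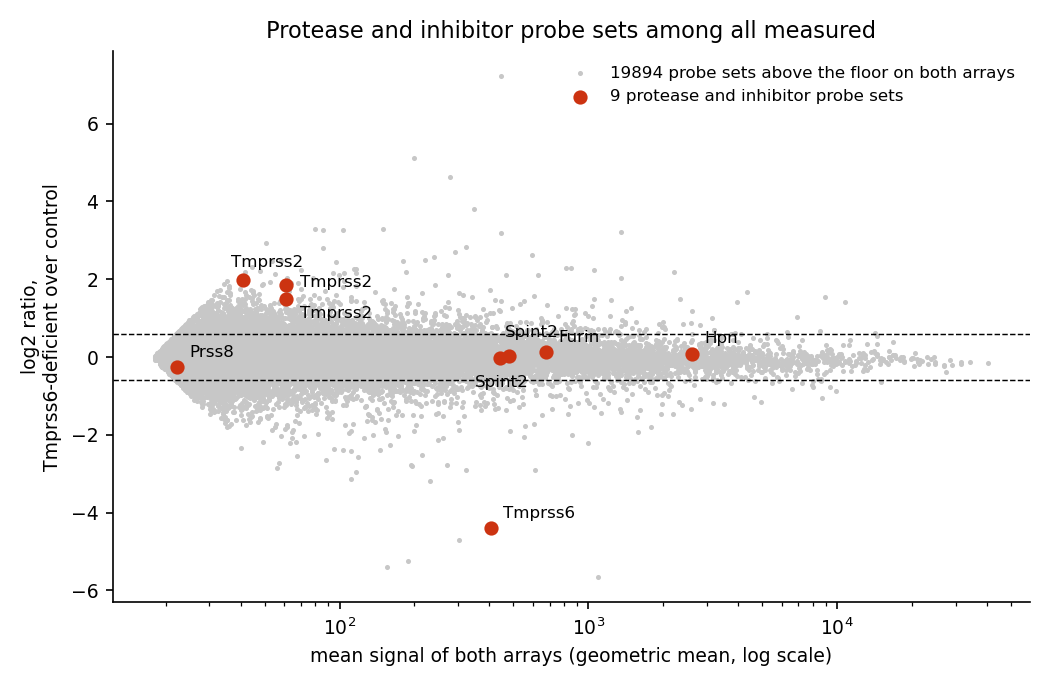
Log2 ratio of deficient over control against the mean signal (log axis) for 19894 probe sets in grey and 9 probe sets of the family in red, with dashed lines at 1.5-fold. Tmprss6 lies at -4.41, the 3 sets of Tmprss2 lie between 1.49 and 1.98, and the sets of Hpn, Furin and Spint2 lie inside the lines.

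Hepsin and the convertase furin, by contrast, had nearly the same signal in both livers. Hpn, read by 1420712_a_at, had a signal of 2528 in the control and 2687 in the deficient liver, a log2 ratio of 0.088, which is 0.54 times the spread at that signal. Furin, which encodes the convertase that activates many precursors of the secretory pathway and can release soluble hemojuvelin, read 649 and 708 on 1418518_at, a log2 ratio of 0.13 and 0.60 times the spread. Both differences lay within the spread between probe sets.

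Matriptase and its activating partner were near or below the floor. St14, the matriptase gene, read 16.5 and 12.6 on 1418076_at, below the floor in both livers. Prss8, the prostasin gene, read 24.3 and 20.3 on 1418320_at, a log2 ratio of -0.26, which is 0.52 times the spread at that signal. Tmprss4, another epithelial type II protease, read 4.5 and 3.6 on 1426302_at. Corin, the protease of heart muscle that activates the atrial natriuretic peptide, read 0.4 and 2.4 on 1419017_at. St14, Tmprss4 and Corin got no ratio, since both signals of each were below the floor, and differences between such signals have no order here. Of 8 heart muscle markers, 7 stayed under the floor in both livers, and the other, Tnnt2, read 27.1 and 2.6, at least 1.52-fold lower. Their summed signal was 47.6 in the control liver, most of it from Tnnt2, and 62.9 in the deficient liver, all of it from signals below the floor.

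The inhibitor genes differed from each other. Spint2, which encodes HAI-2, was read by 2 probe sets, 1451935_a_at at 476 and 484 and 1438968_x_at at 445 and 440 in control and deficient liver. The log2 ratios of 0.025 and -0.016 bracketed zero, with a spread of 0.21 at that signal. Spint1, which encodes HAI-1, read 27.1 in the control and 15.2 in the deficient liver on 1416627_at. It was at least 1.52-fold lower, as a bound against the floor. This call is a dim one: with the floor used as a pseudocount the log2 ratio was -0.44, short of 1.5-fold, and with the floor at the 70th percentile Spint1 was below it on both arrays.

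Spint1, Prss8, St14 and Tmprss2 are genes of epithelia, so the epithelial markers are given beside them. Of 13 named cholangiocyte and other epithelial markers, 10 were above the floor on at least 1 array, 0 passed 1.5-fold upward and 2 downward. Of all 12243 measured genes, 8.83% were higher and 9.2% lower by that size. The signs of these 10 markers were 8 lower and 2 higher, several of them near zero, while 50.4% of all measured genes were lower. Only 4 of the 10 were above the floor on both arrays, with log2 ratios from -0.16 to 0.086. The other 6 have bounds, whose sign is fixed by which array passed the floor. The split of signs is therefore no measure of a shift in the list. Krt19, a bile duct keratin, read 49.2 and 15.1 in control and deficient liver and was at least 2.76-fold lower. Cldn7, an epithelial tight junction gene, read 29.1 and 1.1 and was at least 1.63-fold lower. The summed signal of the list was 3952 and 3846, most of it from Krt8 and Krt18, keratins that hepatocytes also make, and no marker was at 0 on either array. Spint1, Krt19 and Cldn7 read lower by 1.5-fold or more and Tmprss2 read higher, and the part of bile duct tissue in the signals of Spint1 and Tmprss2 was not tested. In whole liver RNA, fewer cells of a type and less RNA per cell cannot be told apart.

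**Figure D3:**
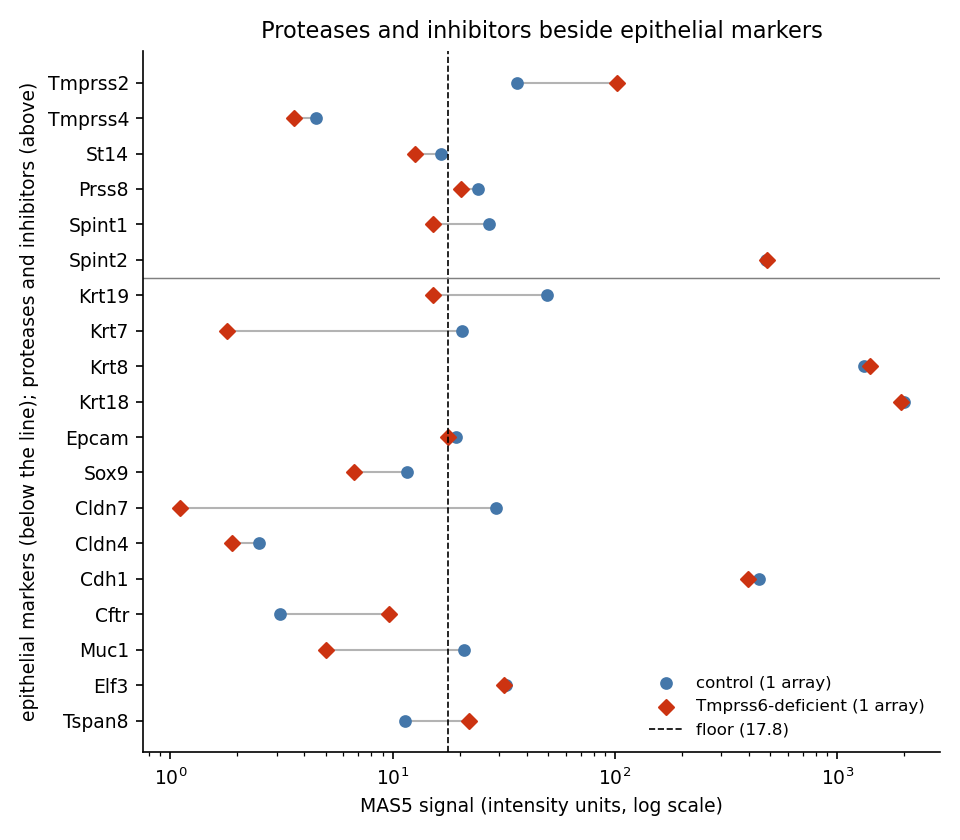
MAS5 signal (log axis, intensity units) in the control (circles) and Tmprss6-deficient liver (diamonds) of 6 proteases and inhibitors, above the line, and 13 epithelial markers, below it, each by its brightest probe set. The dashed line is the floor of 17.8, and Krt19, Krt7, Epcam, Cldn7, Muc1 and Spint1 cross it from right to left, Tspan8 crosses from left to right, and Tmprss2 lies to the right of its control value.

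Markers of further cell types were compared with the same rule. The summed signal in control and deficient liver was 3060 and 2239 for 7 Kupffer cell markers, 679 and 768 for 6 endothelial markers, 827 and 450 for 6 stellate and mesenchymal markers, and 673 and 261 for 4 erythroid markers. The stellate sum was set by Acta2, at 514 and 89.2 on its brightest set, without which it was 313.2 and 360.6. The 2 measured sets of Acta2 went in opposite directions, with log2 ratios of -2.53 and 0.20, so its direction depends on the probe set. The endothelial sum was set by Lyve1, at 32.3 and 152, without which it was 646 and 616. Most of the erythroid sum came from 1 gene, Alas2, at 593.1 and 232. Pancreas acinar markers summed to 349.9 and 249.4 over 7 genes, most of it from Cela1, at 228.6 and 145.8. Intestinal markers summed to 2137 and 2206 over 7 genes, most of it from Fabp2, at 2045 and 2078. By 1.5-fold or more, 1 Kupffer, 1 endothelial, 0 stellate, 0 erythroid, 0 pancreatic and 0 intestinal markers were higher, and 2, 1, 1, 2, 2 and 0 were lower, in that order. The numbers measured on at least 1 array were 7, 6, 6, 3, 4 and 3. Among the lower calls, an erythroid and a pancreatic one were bounds. Of all measured genes, 8.83% were higher and 9.2% lower by that size, and these short lists were not tested against those shares. The 2 lower erythroid markers, Alas2 and Klf1, were also lower by 2-fold or more, Klf1 as a bound. By that size 2.78% of all genes were lower. The part of these cell types in the signals of the proteases was not tested.

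Other type II transmembrane proteases gave no level in either liver. Of 15 listed, 9 were named on the array, and all 9 were below the floor on both arrays. Tmprss3 read 8.6 in the control and 7.9 in the deficient liver, Tmprss11a read 7.2 and 4.7, and Tmprss13, the nearest to the floor on either array, read 15.1 and 1.5. Among the type II proteases looked at, then, signals above the floor were found for Tmprss6, Hpn and Tmprss2 alone.

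GPI-anchored and type I membrane proteases, the group of prostasin and tryptase gamma, were dim as well. Of 9 named, 5 were measured, 1 of them higher and 0 lower by at least 1.5-fold, at a median log2 ratio of 0.20. The shares of all measured genes past that size were 8.83% higher and 9.2% lower. Tpsg1, the tryptase gamma gene, read 8.4 in the control and 27.1 in the deficient liver and was at least 1.52-fold higher as a bound. Prss55 read 45.6 and 48.0, and Prss42 read 23.5 and 27.0. The call for Tpsg1 was lost when arrays were scaled to the median, after quantile normalization and with the higher floor.

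Proprotein convertases, the relatives of furin that cut precursors at basic residues, gave no call past 1.5-fold on their brightest sets. Of 6 named, 5 were measured and 0 were higher or lower by 1.5-fold, with a median log2 ratio of 0.16 and a range from -0.53 to 0.26. Of all 12243 measured genes, 18% were past that size in either direction, and so short a list was not tested against that share. Pcsk6, whose product PACE4 cuts growth factor precursors, read 478 and 555. Mbtps1, the site-1 protease that activates SREBP factors, read 273.1 and 304.5, Pcsk7 read 152 and 160.5, and Pcsk5 read 64.6 and 77.6.

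The other Kunitz and serpin inhibitors of trypsin-like proteases, whose signals ran from dim to very bright, likewise gave no call past 1.5-fold on their brightest sets. Of 14 named, 11 were measured, 1 of them only as a bound, and 0 were past 1.5-fold in either direction. Of all 12243 measured genes, 18% were past that size, and the list was not tested against that share. The median log2 ratio of the list was -0.0079, with a range from -0.46 to 0.31. Serpina1b, an alpha-1-antitrypsin gene whose near-identical copies can share its probes, read 22460 and 20553. Serpinc1, the antithrombin gene, read 12340 and 13192, Ambp, the bikunin precursor gene, read 11171 and 9770, and Serping1, the C1 inhibitor gene, read 6914 and 7476.

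Of the genes listed here as substrates and partners of the proteases, Hamp and Plaur were higher and F11, Bmp6 and Acvr1 lower by 1.5-fold or more. These were 2 and 3 of 27 measured among 32 named, shares near the 8.83% and 9.2% of all genes, and the median log2 ratio of the list was 0.00098. Hamp, the hepcidin gene, was 2.66-fold higher on its brightest set, where it read 6593 and 17531. Plaur, the urokinase receptor gene, read 19.6 and 32.5, both dim, a 1.66-fold higher signal. F11, the gene of coagulation factor XI, a plasma serine protease made by the liver, was lower, with 566.7 and 239.8 on its only set, a log2 ratio of -1.24. Bmp6, a ligand upstream of hepcidin, read 45.0 and 24.3 on its only set, both dim, a log2 ratio of -0.89 where the spread is 0.50. The signals of Bmp6 and Plaur lie below the raised floor of 52.9 and give no ratio there. Acvr1, a BMP type I receptor gene, read 177.5 and 115.3, but 2 of its 3 measured sets were higher in the deficient liver, so its direction depends on the probe set.

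Substrates of the single proteases were read as follows, while in the whole list 13 measured genes were lower and 14 higher. Hjv, the hemojuvelin gene and substrate of matriptase-2, read 594 and 684 on its brightest set and 266 and 423 on another, log2 ratios of 0.20 and 0.67. Mst1, the gene of a growth factor precursor that hepsin can activate, read 706 and 952.5, a log2 ratio of 0.43, above the spread of 0.21 at that signal. Hgf, another growth factor gene of the list, read 38.9 and 54.2 on its brightest set, a log2 ratio of 0.48. The 2 other measured sets of Hgf were lower, at -0.74 and at a bound of -0.048, so its direction depends on the probe set. Scnn1a, the gene of the alpha subunit of the sodium channel that prostasin activates, read 36.7 and 50.1, a log2 ratio of 0.45, within the spread at that signal. Nppa, the precursor gene that corin activates, read 8.4 and 11.7, below the floor. The brightest of the other partners were within 1.5-fold on their brightest sets: Plg, the plasminogen gene, had a log2 ratio of 0.066, F9 one of 0.20 and F10 one of 0.00098 on its brightest set, and Tfr2, the transferrin receptor 2 gene, had -0.24 with its 2 sets in opposite directions. The other 2 sets of F10 were lower in the deficient liver, with log2 ratios of -0.66 and -0.41, so its level depends on the probe set.

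**Figure D4:**
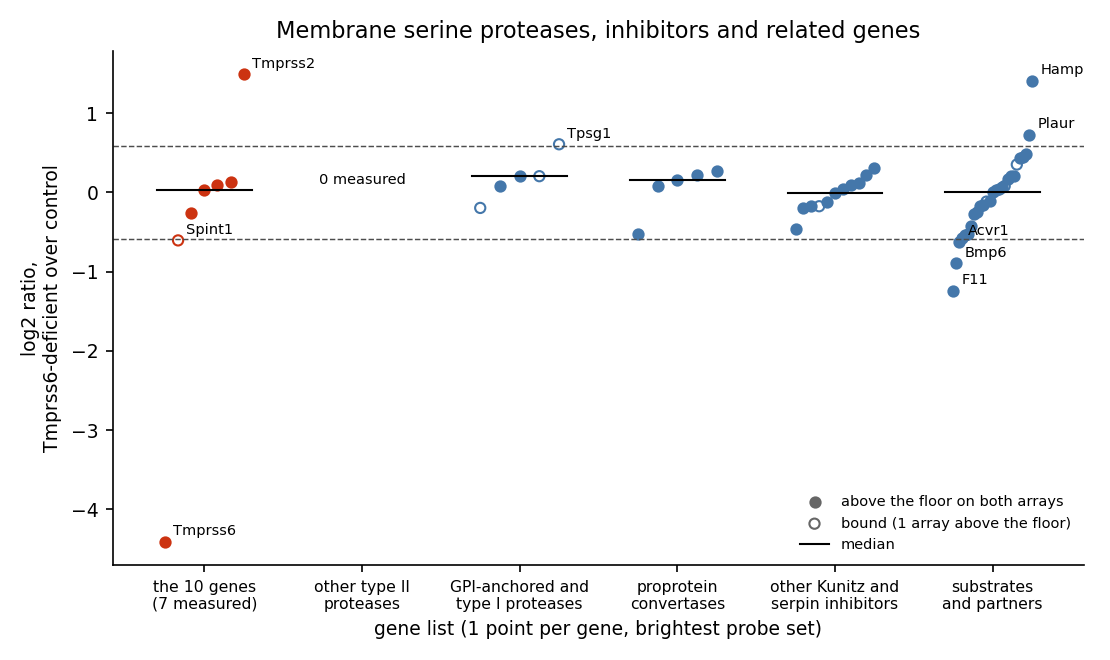
Log2 ratio of deficient over control for each measured gene by its brightest probe set, in the family of 10 genes (red) and in 5 lists of related genes (blue). Open circles are bounds, black bars are medians, dashed lines mark 1.5-fold, and the list of other type II proteases has 0 measured genes. Names are given for genes past 1.5-fold, among them Tmprss6, Tmprss2, Hamp and F11.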

How the data were processed

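Per the labels' protocols, column-purified liver RNA of 1 control and 1 Tmprss6-deficient mouse was labelled with biotin by in vitro transcription from cDNA. The authors deposited intensity signals, for which the submitters' processing notes name MAS5 without version or settings. The mean after trimming 2% of probe sets at each end was 100.0 on both arrays, so further scaling to a common mean changed almost nothing. MAS5 signals near background are noisy, and detection calls were not used here, so a floor (the median, 17.8) stands in for them.

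The platform annotation gave a single symbol for 34958 of 45101 probe sets, several for 932 and no entry for 9211, and the RefSeq table held the gene identifier of 34754. The brightest probe set by mean log2 signal stands for its gene. The work used Python 3.11.15, pandas 2.3.3 and statsmodels 0.14.6, and the ratio steps were tested on simulated data. The genes, lists, floor and thresholds were chosen with earlier results of these data known. Named were all 10 genes, related genes past 1.5-fold and up to 4 others per list by signal. Hjv, Mst1, Hgf, Scnn1a and Nppa were added as substrates. Krt19, Cldn7, Acta2, Lyve1, Alas2, Klf1, Cela1, Fabp2 and Tnnt2 are markers chosen after their values were seen. Alternatives changed the scaling, the floor or the choice of probe set.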

Additional observations from a re-analysis of the deposited data

How the results depend on the processing

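Under 9 alternatives (no scaling, median, quantile or loess scaling, a lower floor at the 30th percentile or a higher one at the 70th, a pseudocount of the floor's size, averaged probe sets, and sets without a suffix), 58 of 59 log2 ratios of the 7 measured genes moved by less than the spread between probe sets and 0 of the calls turned direction. The exception was Tmprss6 with the pseudocount, at -4.15, within a range from -4.47 to -4.15. Many of the 59 values could hardly move by design. Both arrays already had the same trimmed mean, averaging cannot change a gene with 1 probe set, and the floors do not touch bright genes. Tmprss2 ranged from 1.12 to 1.80. Both ends are values of 1419154_at, which became its brightest set under the higher floor and after quantile normalization. The set used otherwise, 1449369_at, gave 1.45 after quantile normalization. By single set, the higher floor gave bounds of 1.12 for 1419154_at, 0.94 for 1449369_at and 0.62 for 1458347_s_at, in place of 1.85, 1.49 and 1.98, and the pseudocount gave 1.37 for the last, all beyond the spread. The count of genes lower by 1.5-fold was 1 in place of 2 under the higher floor and under the pseudocount, where Spint1 no longer passed. Hpn and Spint2 have only sets with a suffix and gave no value without them, and Prss8 and Spint1 gave none with the higher floor.

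Counts past 1.5-fold in either direction moved in the related lists. With the floor at the 30th percentile (6.8) they were 2 of the other type II proteases, 4 of the GPI-anchored and type I proteases, 1 of the convertases, 1 of the inhibitors and 9 of the substrates and partners, in place of 0, 1, 0, 0 and 5. Scaling to the median, which moved the median of all genes to -0.064, gave 0, 1 and 8 for GPI-anchored proteases, convertases and substrates. Quantile normalization gave 0 for GPI-anchored proteases, the higher floor 0 for them and 3 for substrates, and the pseudocount 1 for inhibitors. The cause of these shifts was not tested. No paired analysis was possible because each group holds 1 array. Signal over background limits Tmprss4, St14 and Corin, which lie below the floor on both arrays, and Spint1, which has only a bound.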
